A study of Mus musculus with 4 samples.

Results

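The genes described here take part in the transport, sensing and activation of butyrate in mouse CD8+ T cells exposed to sodium butyrate (NaBu) for 12 h. They are 10 genes chosen by symbol. Of these, 8 were among the 17559 genes listed in the deposited files. They comprise the monocarboxylate transporter genes *Slc16a1*, *Slc16a3* and *Slc16a7*, the transporter chaperone gene *Bsg*, the acyl-CoA synthetase genes *Acss1* and *Acss2*, the dehydrogenase gene *Acads*, and the receptor genes *Ffar2*, *Ffar3* and *Hcar2*.

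RNA-seq libraries were made from cells given 1 mM NaBu (NaBu 1 and NaBu 2) and from cells given a control treatment that the labels do not describe further (Ctrl 1 and Ctrl 2), 2 libraries each. All 4 libraries came from C57BL/6 mice carrying OT-I, a transgenic T cell receptor of a single specificity for an ovalbumin peptide, from tissue labelled LN. The cells were selected negatively on magnetic columns to a purity above 95% and activated for 2 d on plates coated with antibodies to CD3 at 1 µg/ml and to CD28 at 2 µg/ml. They then spent 2 d in fresh plates without the antibodies, with IL-2 at 10 ng/ml in both periods. The labels give neither the number of mice nor whether replicates were separate cultures, so p-values measure the spread between these libraries, which may be technical. Expected counts summed to between 19857701 and 19859649 in the NaBu libraries and between 20344399 and 20548571 in the controls. The spread within a group exceeded counting noise (chi-square over its degrees of freedom 2.85 in NaBu and 7.65 in Ctrl). The CD8+ T cell markers *Cd3d*, *Cd3e*, *Cd3g*, *Cd8a* and *Cd8b1* summed to between 1204 and 1209 FPKM in NaBu and between 1178 and 1216 FPKM in Ctrl. FPKM is the fragment count scaled to transcript length and library size. Of these 5 genes, 4 were called lower and *Cd3g* higher in NaBu by the test used for the members, and *Trac* was not listed. By the same test 34.5% of all genes tested were called higher and 34.1% lower in NaBu.

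Butyrate is a short-chain fatty acid made by gut bacteria from fibre, and it inhibits histone deacetylases. It crosses the plasma membrane through proton-coupled monocarboxylate transporters, of which MCT1 (*Slc16a1*) and MCT4 (*Slc16a3*) need basigin (*Bsg*) to reach the cell surface, while activated T cells use the same carriers to export lactate. Inside the cell, fatty acids are joined to coenzyme A by acyl-CoA synthetases. ACSS2 in the cytosol and nucleus and ACSS1 in mitochondria act mainly on acetate, and short-chain acyl-CoA dehydrogenase (*Acads*) begins the oxidation of butyryl-CoA. Outside the cell, butyrate is also a ligand of the G protein coupled receptors GPR43 (*Ffar2*), GPR41 (*Ffar3*) and GPR109A (*Hcar2*), best known from myeloid, gut and fat cells.

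Transcripts for uptake and metabolism were detected. Of the receptor genes, *Ffar2* did not reach the same limit, and *Ffar3* and *Hcar2* were not listed and have no value here. With an FPKM of 1 or more in both libraries of a group as the limit, 6 of the 10 members were detected: *Bsg*, *Slc16a3*, *Slc16a1*, *Acads*, *Acss2* and *Acss1*, in that order of FPKM in each of the 4 libraries. Within each group no library ranges of neighbouring genes in that order overlapped. *Bsg* lay above 99.1% of listed genes in each NaBu library and above 98.6% and 98.4% of them in Ctrl 1 and Ctrl 2. *Slc16a3* lay above 98.0% in each NaBu library and above 98.1% and 97.6% in Ctrl 1 and Ctrl 2. *Acss1* was the lowest of the 6, above 43.0% and 43.4% of listed genes in NaBu 1 and NaBu 2, against 50.4% and 50.9% in Ctrl 1 and Ctrl 2.

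*Ffar2* had 2 and 7 expected counts in NaBu 1 and NaBu 2, against 5 and 7 in Ctrl 1 and Ctrl 2, or FPKM values of 0.05 and 0.19 in NaBu, against 0.13 and 0.16 in Ctrl. Its summed counts scaled by library size (CPM) were 0.227 in NaBu, with an exact Poisson 95% interval of 0.104 to 0.43, and 0.293 in Ctrl, with an interval of 0.152 to 0.513. The groups overlapped, and no difference was detectable at this depth. These intervals and the floor given next reflect counting error alone and leave out the spread between libraries. No molecular identifiers separate molecules from their copies, so the counting error itself may be larger. *Slc16a7*, encoding MCT2, a carrier with high affinity for its substrates, had 2 counts in NaBu 2 and none in NaBu 1, against 1 count in Ctrl 2 and none in Ctrl 1. These sums lie under a floor of 3 counts over the group, which is 0.0755 CPM in NaBu and 0.0734 CPM in Ctrl, so no fold change is given. *Ffar3* (gene 233080) and *Hcar2* (gene 80885) were listed in none of the 4 files under their symbols, synonyms or gene numbers. Every listed gene had a value above 0 in at least 1 library, and no level or limit for these 2 genes was analysed here. Of other cell-surface receptors of fatty and hydroxy acids, *Ffar4* had between 1 and 2 counts in each library, *Hcar1* and *Gpr84* had 1 count each, in NaBu 1, and *Ffar1* and *Olfr78* were not listed and have no value here.

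The sequences before the starts of these genes differed in their content of CpG, the dinucleotide that is dense in the promoters of broadly expressed genes. RefSeq start sites of the GRCm38.p6 (mm10) build were available for 7 members, with 10 starts in all. None was available for *Bsg*, *Slc16a7* or *Hcar2*, which are left out of this description. The 250 bases before a start held a median of 6 CpG over 32841 such windows in the genome. The windows of *Slc16a1* and *Slc16a3* held 37 and 29 CpG, more than 97.8% and 93.2% of all windows. Those of *Acss1*, *Acads* and *Acss2* held 15, 14 and 13. The 4 windows of *Ffar2* held 9 (more than 59.7% of all windows), 3, 3 and 3, and that of *Ffar3* held 3 (more than 29.0%). To show the range of CpG content, the 2 densest member windows and 1 window each of *Ffar2* and *Ffar3* are printed. The *Ffar2* window is the densest of its 4 and lies above the median. All are read 5′ to 3′ on the strand of the gene, with CpG in capitals. They lie at chr3:104638414-104638663 (plus strand) for *Slc16a1*, chr11:120948817-120949066 (plus) for *Slc16a3*, chr7:30823776-30824025 (minus) for the first listed start of *Ffar2* and chr7:30856179-30856428 (minus) for *Ffar3*. The *Slc16a3* window lies inside the span of the gene, which has an earlier annotated start.
Slc16a1: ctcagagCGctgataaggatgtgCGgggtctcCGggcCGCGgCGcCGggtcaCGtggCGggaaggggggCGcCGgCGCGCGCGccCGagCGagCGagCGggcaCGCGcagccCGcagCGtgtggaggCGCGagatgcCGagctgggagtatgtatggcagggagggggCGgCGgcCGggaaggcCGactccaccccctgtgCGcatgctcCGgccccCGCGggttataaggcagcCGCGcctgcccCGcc
Slc16a3: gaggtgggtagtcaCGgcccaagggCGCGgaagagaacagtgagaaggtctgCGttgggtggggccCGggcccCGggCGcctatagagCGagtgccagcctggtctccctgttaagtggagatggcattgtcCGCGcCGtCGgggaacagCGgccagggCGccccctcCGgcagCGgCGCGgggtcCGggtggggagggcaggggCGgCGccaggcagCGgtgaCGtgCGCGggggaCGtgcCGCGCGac
Ffar2: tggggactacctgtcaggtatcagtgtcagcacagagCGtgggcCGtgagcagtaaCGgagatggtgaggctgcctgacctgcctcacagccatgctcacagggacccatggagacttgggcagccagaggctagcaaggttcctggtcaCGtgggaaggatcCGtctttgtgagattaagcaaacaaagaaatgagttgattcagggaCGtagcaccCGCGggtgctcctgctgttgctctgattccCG
Ffar3: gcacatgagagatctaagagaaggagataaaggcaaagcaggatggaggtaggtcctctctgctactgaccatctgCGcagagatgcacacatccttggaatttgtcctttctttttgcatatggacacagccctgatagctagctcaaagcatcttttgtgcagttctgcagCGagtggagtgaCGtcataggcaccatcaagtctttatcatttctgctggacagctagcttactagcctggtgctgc
The GC box GGGCGG, searched on both strands, occurred in the windows of *Slc16a1* (1), *Slc16a3* (1), *Acss1* (2), *Acss2* (4) and *Acads* (1), against 32.7% of all windows. It also occurred once in each of 2 *Ffar2* windows, which overlap and share this 1 site and their 3 CpG. The E-box CACGTG occurred once each in the windows of *Slc16a1* and of the first *Ffar2* start, against 6.02% of all windows. The shorter motif ACGTG, which every CACGTG contains, occurred 2 times in each of the windows of *Slc16a1*, *Slc16a3* and the first *Ffar2* start, against 16.6% of all windows. A palindromic CACGTG counts as 2 occurrences of ACGTG. These matches describe letters and were not tested for binding.

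**Figure D1:**
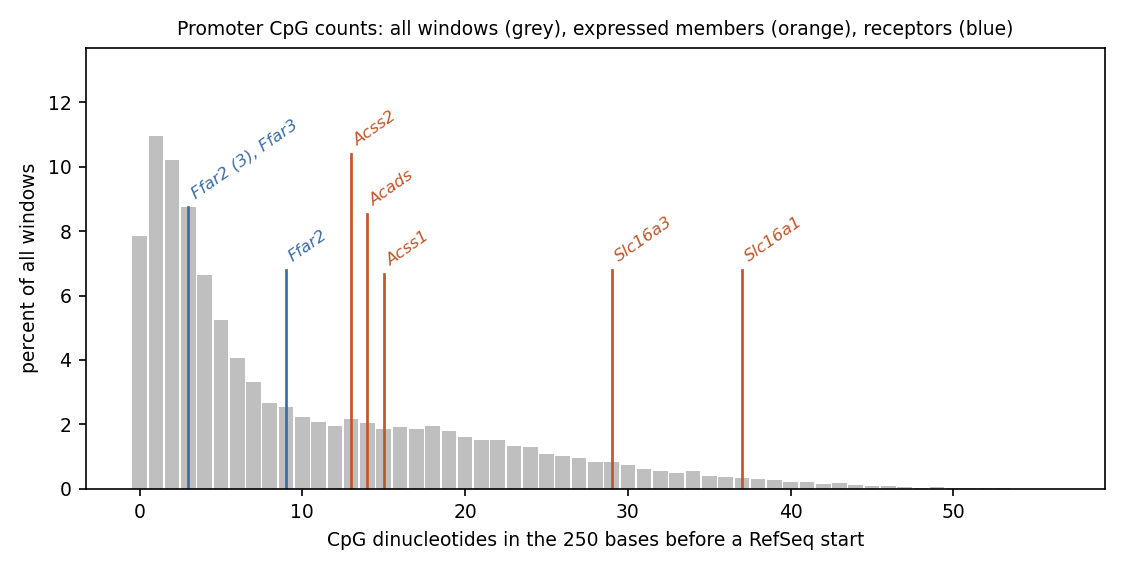
CpG dinucleotides in the 250 bases before each RefSeq start (x axis, count) against the percent of all windows with that count (y axis, grey bars). Lines mark member windows, whose height has no meaning: the receptor genes *Ffar2* (3 of its 4 windows coincide) and *Ffar3* lie at 9 or 3, and the detected members shown at 13 to 37.

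The comparison of NaBu with Ctrl asked which of these genes changed after exposure to butyrate. *Bsg* and *Acads* rose, *Acss1* and *Acss2* fell, and neither expressed transporter gene passed the test. The other 4 members were not tested, since 2 had too few counts and 2 were not listed. Calls are at an adjusted p of 0.05 in edgeR's quasi-likelihood test over 12943 genes. Of all genes tested 68.6% were called, 34.5% higher and 34.1% lower in NaBu, so the 4 of 6 tested members that were called (66.7%) are near that share. The FPKM ranges of the groups did not overlap for 5 of the 6 tested members, 3 higher and 2 lower in NaBu, against 84% of tested genes, 48% higher and 35.9% lower. The median log2 fold change of the 6 was 0.0056, against 0.0047 for all genes tested. Fold changes are on edgeR's TMM scale, which sets the bulk of genes to no change, and differ from ratios of mean FPKM, as for *Bsg* with 1.73 against 1.86.

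**Figure D2:**
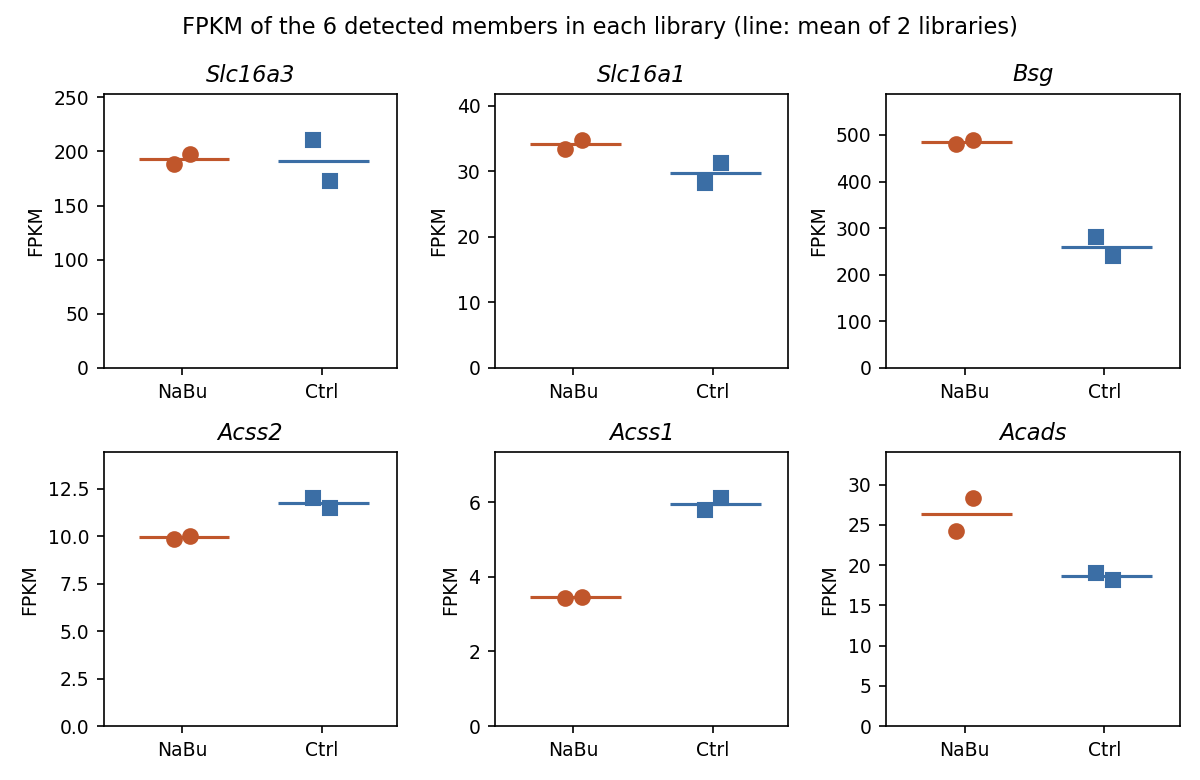
FPKM (y axis, linear from 0) of the 6 detected members, with NaBu libraries as circles, Ctrl libraries as squares and lines at the mean of 2 libraries. *Bsg* and *Acads* are higher and *Acss1* and *Acss2* lower in both NaBu libraries than in both Ctrl libraries, and the *Slc16a3* values overlap.

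*Slc16a3* (gene 80879, chromosome 11, 120948484 to 120959000) had an FPKM of 188.8 and 197.5 in NaBu 1 and NaBu 2, against 210.9 and 172.3 in Ctrl 1 and Ctrl 2. Both NaBu values lay between the control values, and the controls spread more widely (SD 27.3, against 6.14 in NaBu, n = 2 each). The fold change of NaBu over Ctrl was 0.939, with a 95% interval of 0.82 to 1.08 (edgeR adjusted p = 0.379). The outcome differed with the control left out. Without Ctrl 2, *Slc16a3* was called lower (log2 fold change -0.23, edgeR adjusted p = 0.00478), and without Ctrl 1 it was not called (log2 fold change 0.056). Its span overlaps that of *Csnk1d* by 1292 bases in the RefSeq annotation, and without a known strand setting shared reads of such pairs cannot be told apart. The expected counts of both genes were whole numbers in every library, and how many reads they share was not tested.

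*Slc16a1* (gene 20501, chromosome 3, 104638664 to 104658462) had an FPKM of 33.5 and 34.9 in NaBu 1 and NaBu 2, against 28.3 and 31.3 in Ctrl 1 and Ctrl 2. The NaBu libraries were both above the controls. On the TMM scale the fold change was 1.07, with a 95% interval of 0.968 to 1.19, and did not pass (edgeR adjusted p = 0.199). It was called higher on library totals (log2 fold change 0.20, edgeR adjusted p = 0.0209), in limma on log2(FPKM + 1) (0.19, adjusted p = 0.0442) and log2(FPKM + 0.1) (0.20, adjusted p = 0.0462), with a minimum of 5 CPM (0.16, edgeR adjusted p = 0.0398) and without Ctrl 2 (0.17, edgeR adjusted p = 0.0258). Together the 3 transporter genes summed to 222.2 and 232.4 FPKM in NaBu 1 and NaBu 2, against 239.2 and 203.6 FPKM in Ctrl 1 and Ctrl 2. *Slc16a3* made up 84.9% and 85.0% of that sum in NaBu, against 88.2% and 84.6% in Ctrl.

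*Bsg* (gene 12215, chromosome 10, 79704358 to 79711979), whose protein also carries the name CD147, had an FPKM of 481.0 and 490.0 in NaBu 1 and NaBu 2, against 281.9 and 239.2 in Ctrl 1 and Ctrl 2. The groups did not overlap, and the gap between the lowest NaBu and the highest Ctrl value was far wider than the gap within either group. *Bsg* averaged 485.5 ± 6.36 FPKM in NaBu and 260.6 ± 30.2 FPKM in Ctrl (SD, n = 2 each), and on the TMM scale its fold change was 1.73 with a 95% interval of 1.53 to 1.96 (edgeR adjusted p = 7.88e-06). It also passed a test for a change beyond 1.5-fold (edgeR glmTreat adjusted p = 0.0118), as did 29.2% of tested genes. The files pair *Bsg* with 2 RefSeq transcripts, and its mean transcript length, weighted by their estimated abundance, was 1414 and 1413 bases in NaBu 1 and NaBu 2, against 1422 and 1419 in Ctrl 1 and Ctrl 2. That difference is small beside the length itself and was not tested.

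*Acss1* (gene 68738, chromosome 2, 150618111 to 150668240), the mitochondrial acetyl-CoA synthetase gene, had an FPKM of 3.44 and 3.47 in NaBu 1 and NaBu 2, against 5.79 and 6.11 in Ctrl 1 and Ctrl 2. The groups were separated by several times the gap within either of them. It fell, and its log2 fold change was -0.88 ± 0.09 (SE), a fold change of 0.544 (95% interval 0.473 to 0.627, edgeR adjusted p = 1.06e-05), and also passed the test for a change beyond 1.5-fold (glmTreat adjusted p = 0.00469). Its expected counts were not whole numbers in any library, as RSEM gives where reads match more than 1 place. Its span overlaps *E130215H24Rik* by 747 bases, and that gene had at most 9 counts in any library. It also overlaps *Gm52532*, a gene not listed in the files, by 32439 bases.

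*Acss2* (gene 60525, chromosome 2, 155518043 to 155562743), the gene of the nuclear and cytosolic enzyme, also fell. It had an FPKM of 9.88 and 10.04 in NaBu 1 and NaBu 2, against 12.03 and 11.52 in Ctrl 1 and Ctrl 2. The groups did not overlap, and the log2 fold change was -0.34 ± 0.08 (SE), a fold change of 0.791 (95% interval 0.701 to 0.893, edgeR adjusted p = 0.00299). It did not pass the test for a change beyond 1.5-fold (glmTreat adjusted p = 1). Its span overlaps *Acss2os*, with an FPKM of at most 0.1 in any library, by 9891 bases.

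*Acads* (gene 11409, chromosome 5, 115110299 to 115119346) had an FPKM of 24.3 and 28.4 in NaBu 1 and NaBu 2, against 19.0 and 18.2 in Ctrl 1 and Ctrl 2. Both NaBu libraries were above both controls, but they differed from each other by more than the controls did. The log2 fold change was 0.40 ± 0.09 (SE), a fold change of 1.32 (95% interval 1.153 to 1.52, edgeR adjusted p = 0.00208). The call was lost without NaBu 2 (log2 fold change 0.28, edgeR adjusted p = 0.0648) and in the test for a change beyond 1.5-fold (glmTreat adjusted p = 1).

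Base composition moved with some of these values. Across 12397 tested genes with a transcript sequence, the log2 fold change correlated with GC content (Pearson r = 0.22, a description across genes of the same 4 libraries). *Acads* transcripts had a GC content of 59.6%, above 94.5% of tested genes, and *Slc16a3* 58.1%, above 89.1%, whereas *Slc16a1* had 42.9%, above 9.55%. With the GC trend removed from each library, *Acads* no longer passed (log2 fold change 0.16, edgeR adjusted p = 0.0732). *Slc16a1* was then called higher (0.24, edgeR adjusted p = 0.000694) and *Slc16a3* lower (-0.24, edgeR adjusted p = 0.00209). *Bsg* (0.75), *Acss1* (-0.91) and *Acss2* (-0.34) kept their calls. This setting was chosen after seeing the data.

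**Figure D3:**
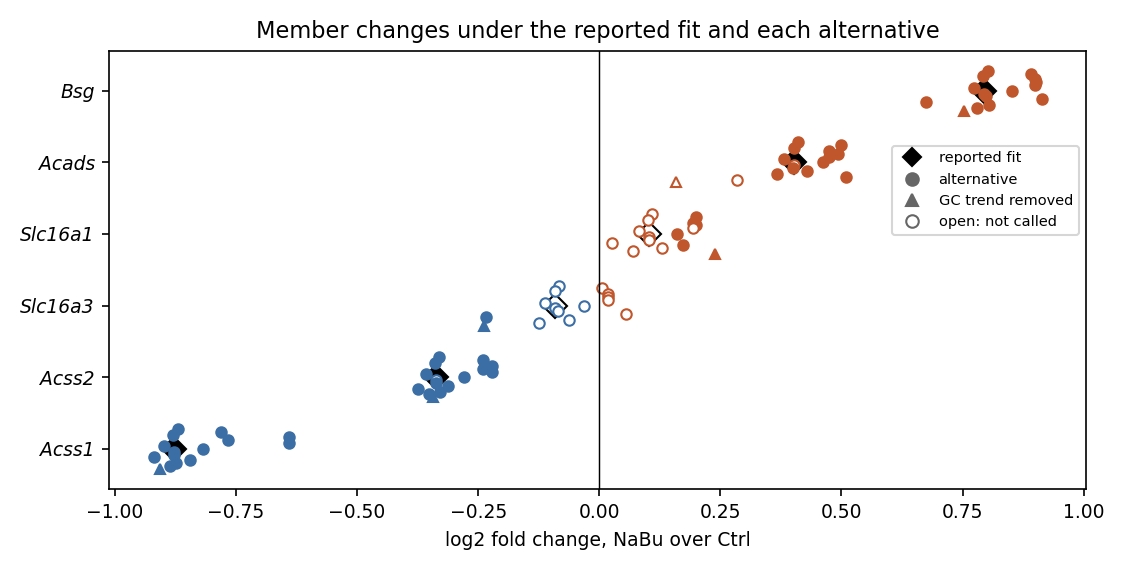
Log2 fold change of NaBu over Ctrl (x axis) for the 6 tested members, with black-edged diamonds for the reported fit, circles for the alternatives, triangles for the fit with the GC trend removed and open symbols where the adjusted p was above 0.05. *Bsg* (0.67 to 0.91) and *Acss1* (-0.92 to -0.64) are filled throughout, while *Slc16a3* (-0.24 to 0.056) crosses 0.

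Ratios between members within a library do not depend on how libraries are scaled, but they were not corrected for the GC trend above. *Bsg* over the summed transporter FPKM was 2.16 and 2.11 in NaBu 1 and NaBu 2, against 1.18 in each control. The controls differed in *Bsg* and in *Slc16a3*, each higher in Ctrl 1, but hardly in this ratio. *Acss2* over *Acss1* was 2.87 and 2.89 in NaBu 1 and NaBu 2, against 2.08 and 1.89 in Ctrl 1 and Ctrl 2. *Acads* over the summed FPKM of *Acss1* and *Acss2* was 1.82 and 2.1 in NaBu, against 1.07 and 1.03 in Ctrl. For these 3 ratios the groups did not overlap. The FPKM of single genes did not overlap for 84% of tested genes, and no such share was computed for ratios. *Slc16a3* over *Slc16a1*, at 5.64 and 5.67 in NaBu against 7.46 and 5.51 in Ctrl, overlapped. The ratios use the same libraries and members as the calls above and add no separate support to them. With 2 libraries a group an exact permutation test cannot give a two-sided p below 0.333, so the ratios are given without one.

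**Figure D4:**
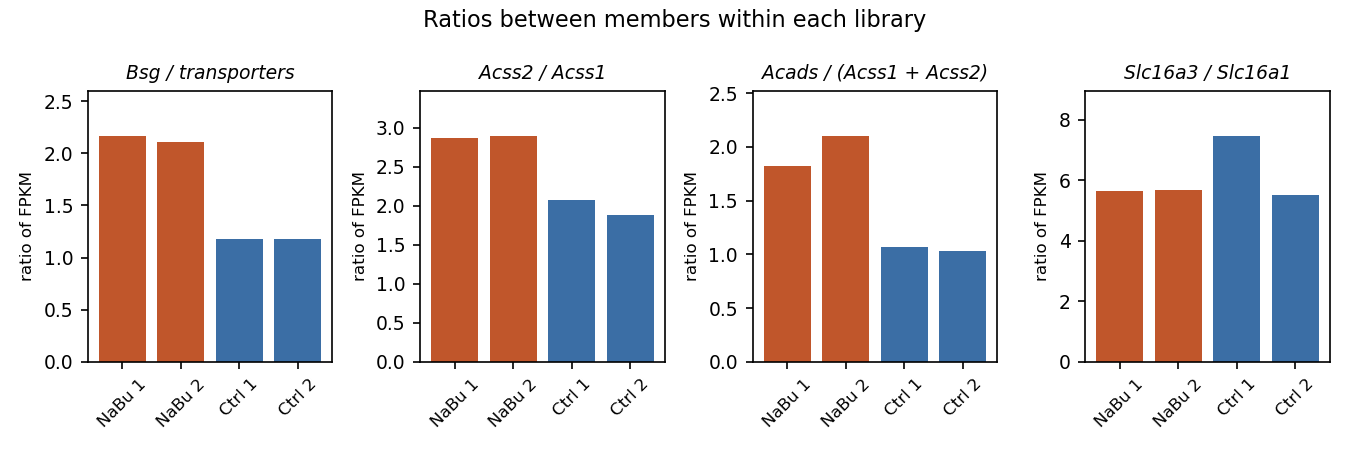
Ratio of FPKM values between members (y axes, linear from 0) in each library, with NaBu bars in orange and Ctrl bars in blue. The first 3 ratios are higher in both NaBu libraries than in both Ctrl libraries, as with 2.16 and 2.11 against 1.18 for *Bsg* over the transporters, and the fourth overlaps.

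A wider list of 54 genes of the same pathway, of which 47 were listed and 35 tested, moved both ways. Of the tested genes, 13 (37.1%) were higher and 14 (40%) lower, against 34.5% and 34.1% of all genes tested. Their median log2 fold change was -0.11, against 0.0047 for all genes tested. When NaBu 1 was left out, or NaBu 2 was left out, 9 were lower.

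Of 15 other carriers, 8 were tested. Of these, 4 (50%) rose and 1 (12.5%) fell, against 34.5% and 34.1% of all genes tested. *Slc16a5*, encoding MCT6, a carrier of the same family, had 2.73 and 2.75 FPKM in NaBu 1 and NaBu 2, against 0.18 and 0.14 in Ctrl 1 and Ctrl 2, a fold change of 15.8 (edgeR adjusted p = 1.04e-07). Its controls held 11 and 9 counts. *Slc16a10*, encoding the aromatic amino acid carrier TAT1, rose 1.76-fold, and *Abcg2*, encoding an efflux pump, 1.38-fold, a call not made by DESeq2 (adjusted p = 0.0627). *Slc16a6*, whose zebrafish counterpart exports ketone bodies from liver, fell to 12.9 and 15.02 FPKM in NaBu, against 25.4 and 24.0 FPKM in Ctrl. *Emb*, encoding embigin, the chaperone of MCT2 and a relative of basigin, rose to 144.1 and 144 FPKM in NaBu, against 93.1 and 103.0 FPKM in Ctrl. *Slc5a8*, encoding the sodium-coupled carrier of butyrate, had 0 counts in 3 libraries and 1 count in Ctrl 2. *Emb* and *Slc5a8* were named after their values were seen.

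Of 8 other acyl-CoA synthetases, 3 were tested. *Acsf2*, encoding a medium-chain enzyme, rose 1.44-fold to 25.7 and 24.3 FPKM in NaBu, against 17.0 and 15.5 FPKM in Ctrl. *Acsf3*, encoding the malonyl-CoA synthetase of mitochondria, fell to 7.22 and 7.24 FPKM in NaBu, against 12.0 and 9.71 FPKM in Ctrl. The medium-chain synthetase genes *Acsm1*, *Acsm2*, *Acsm3* and *Acsm4* had an FPKM of at most 0.12 in any library. Some enzymes of this family accept butyrate. *Acsm5* and *Acss3* were not listed.

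Of 17 genes of enzymes that act after butyryl-CoA or on the acetyl-CoA and ketones made from it, 16 were tested. Of these, 5 (31.25%) rose and 8 (50%) fell, against 34.5% and 34.1% of all genes tested. *Etfb*, encoding a subunit of the flavoprotein that takes electrons from acyl-CoA dehydrogenases, had 117.0 and 123.5 FPKM in NaBu, against 57.3 and 58.5 FPKM in Ctrl (fold change 1.94, edgeR adjusted p = 3.6e-07). *Hadh*, encoding the short-chain hydroxyacyl-CoA dehydrogenase, rose 1.51-fold. *Acly*, encoding ATP citrate lyase, which makes cytosolic acetyl-CoA from citrate, fell to 65.3 and 66.0 FPKM in NaBu, against 101.0 and 98.3 FPKM in Ctrl.

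Of 14 other receptors and coupling proteins, 8 were tested. Of these, 3 (37.5%) rose and 4 (50%) fell, against 34.5% and 34.1% of all genes tested. *Ahr*, encoding the aryl hydrocarbon receptor, rose 3.96-fold, to 6.44 and 5.64 FPKM in NaBu, against 1.32 and 1.54 FPKM in Ctrl (edgeR adjusted p = 1.05e-07). *Gnaq*, encoding the G protein subunit through which GPR43 can raise calcium, rose 1.63-fold. *Arrb1*, encoding a beta-arrestin that binds such receptors, fell to 29.5 and 31.4 FPKM in NaBu, against 50.02 and 40.4 FPKM in Ctrl. *Pparg*, encoding a nuclear receptor for fatty acids, fell to 3.67 and 3.46 FPKM in NaBu, against 4.99 and 5.11 FPKM in Ctrl.

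**Figure D5:**
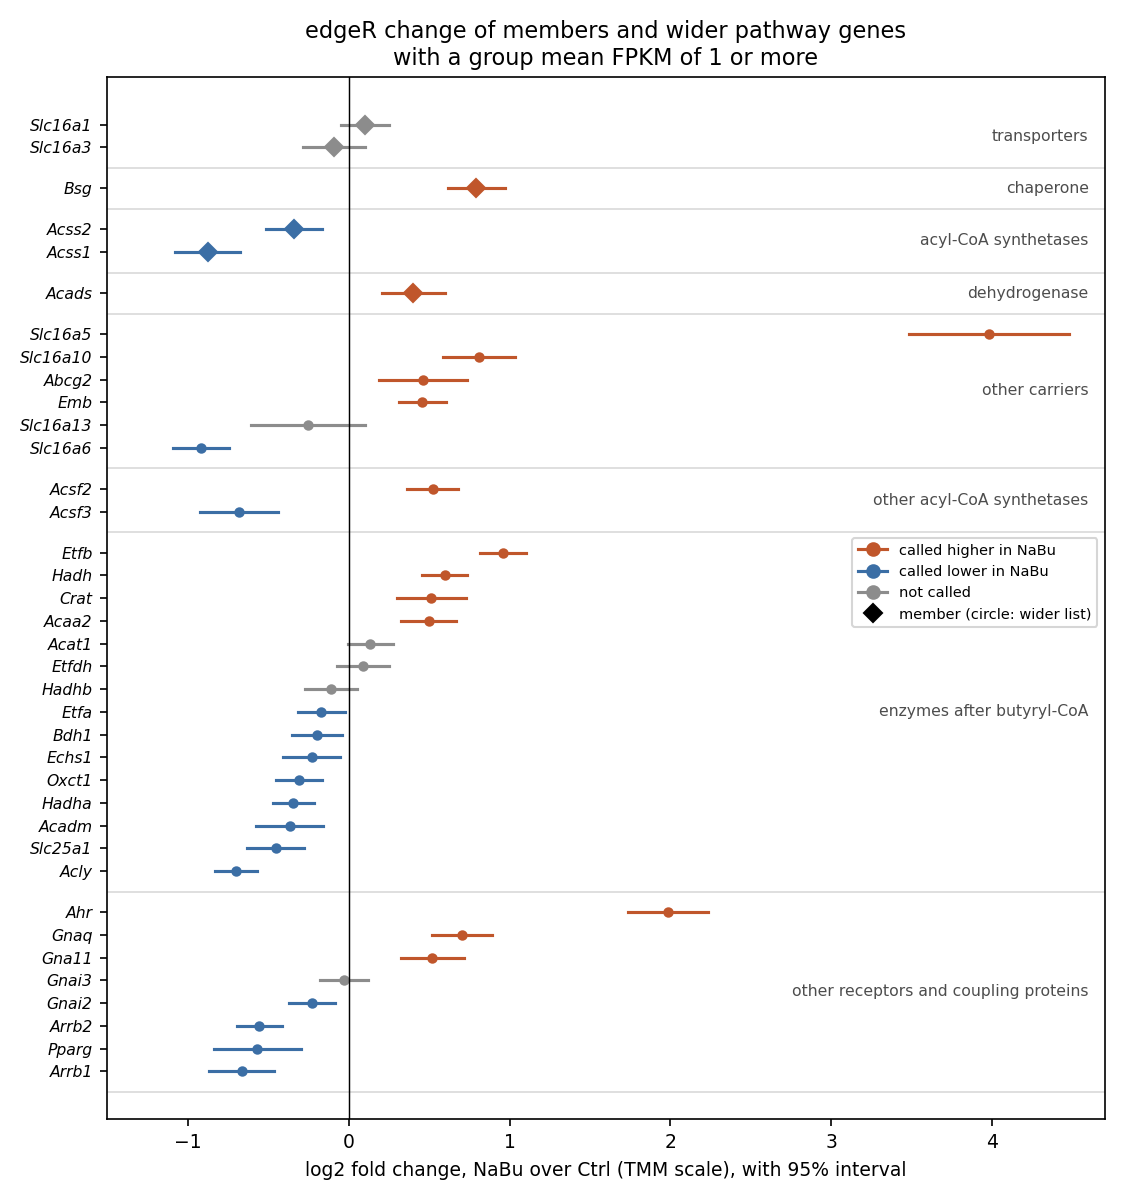
Log2 fold change of NaBu over Ctrl with its 95% interval (x axis) from edgeR for tested members (diamonds) and wider pathway genes (circles) with a group mean FPKM of 1 or more, by role. Members lie between -0.88 (*Acss1*) and 0.79 (*Bsg*), and *Slc16a5* lies farthest from 0, at 3.98.

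Markers of other cells also differed between the groups. Over all genes tested, 34.5% were called higher and 34.1% lower in NaBu. Of 9 macrophage and dendritic cell markers, 7 were listed and 4 tested, of which 3 (*Itgam*, *Mpeg1* and *Cd68*) were higher and 1 (*Xcr1*) lower. The list summed to 36.1 and 33.6 FPKM in NaBu, against 14.1 and 12.4 FPKM in Ctrl. *Cd68* made up most of these sums, with 28.4 and 27.1 FPKM in NaBu, against 11.4 and 9.59 FPKM in Ctrl. *Csf1r* and *Lyz2* were not listed, *Adgre1* had 1 count, in NaBu 1, and *Fcgr1* had at most 1 count in any library. Of 4 epithelial markers, 4 were higher, with sums of 21.4 and 24.2 FPKM in NaBu, against 10.3 and 9.7 FPKM in Ctrl. *Cdh1* made up most of these sums, with 15.7 and 15.1 FPKM in NaBu, against 7.65 and 6.23 FPKM in Ctrl. *Krt8* and *Krt18* had 13 and 27 counts in NaBu 1 and 85 and 77 in NaBu 2, against 8 and 10 in Ctrl 1 and 18 and 21 in Ctrl 2, so NaBu 2 held most of their counts and *Krt8* overlapped between the groups. Of 4 B cell markers, the 1 tested, *Cd79b*, was lower, with sums over the list of 2.62 and 1.96 FPKM in NaBu, against 5.73 and 4.07 FPKM in Ctrl. Of 4 CD4 T cell markers, 2 were higher, with sums of 27.1 and 27.2 FPKM in NaBu, against 21.4 and 19.6 FPKM in Ctrl. *Zbtb7b* made up most of these sums, with 26.1 and 26.3 FPKM in NaBu, against 20.8 and 19.2 FPKM in Ctrl. *Cd4* itself had 0.66 and 0.65 FPKM in NaBu, against 0.02 and 0.03 FPKM in Ctrl. *Foxp3* was tested and not called, and *Cd40lg*, not tested, had 3 and 0 counts in NaBu, against 7 and 6 in Ctrl. Of 2 NK cell markers, the 1 tested, *Klrb1c*, was lower, with sums over the list of 4.94 and 5.57 FPKM in NaBu, against 10.5 and 9.34 FPKM in Ctrl. Of 4 neutrophil markers, *S100a8* and *S100a9* were not listed, *Ly6g* was higher and *Csf3r* lower. The sums were 8.37 and 11.0 FPKM in NaBu, against 4.36 and 4.28 FPKM in Ctrl. *Ly6g* made up nearly all of them, and *Csf3r* had an FPKM of at most 0.19 in any library. The part of other cells in the changes of *Bsg*, *Acads*, *Acss1* and *Acss2* was not tested. In bulk RNA, fewer cells of a type and less RNA per cell cannot be told apart.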

How the data were processed

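RNA-seq was made from 4 libraries of activated OT-I CD8+ T cells, grouped by the sample titles. Reads were processed with Bowtie2 and RSEM on mm10, per the submitters' processing notes. Tool versions, annotation release, library kit and strand setting: not given in the sources used here. For each gene and library the authors deposited a transcript length, an expected count and the FPKM, per the file headers. Their expected counts are not normalized and were rounded before testing, and their FPKM values were used as deposited for levels. RSEM divides reads shared by similar genes by estimation. A gene that a file does not list was set to 0 where another file lists it, the value in the deposited table of the series, whose FPKM values equal those of the sample files (largest difference 0).

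The main test was the quasi-likelihood F test of edgeR 4.0.16 (R 4.3.3) on NaBu against Ctrl, after TMM scaling and filterByExpr by group, without covariates. Benjamini-Hochberg adjustment ran over 12943 genes, holding 99.95% of counts. Standard errors were taken from the log2 fold change and its F statistic, and 95% intervals use the test's degrees of freedom. The scripts were tested on simulated data. The alternatives were other scale factors, other filters, DESeq2 1.42.0, limma 3.58.1 on log2(FPKM + 0.1) and log2(FPKM + 1), keeping genes at 1 FPKM in at least 2 libraries, a fold change of 1.5 as the null, the replicate number as a block, leaving out each library and, added after seeing the data, removal of a lowess trend on GC content (GENCODE M21 transcripts). Promoter sequences and coordinates come from RefSeq (GRCm38.p6).

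The members and lists were chosen with earlier results of these data known. Of the wider list, the text names up to 4 called genes per sub-list ranked by fold change, where both libraries of the higher group reached 1 FPKM. A gene that this rule names is not reported here.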

Additional observations from a re-analysis of the deposited data

How the results depend on the processing

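*Bsg* (log2 fold change 0.67 to 0.91) and *Acss1* (-0.92 to -0.64) kept their direction and call under all 15 alternatives, and *Acss2* under 14 of 15, the exception being a fold change of 1.5 as the null. *Acads* lost its call under 3 and *Slc16a1* gained one under 6, as given above. *Slc16a3* turned to a positive, uncalled log2 fold change on library totals (0.0060), in limma on log2(FPKM + 1) (0.018, also without a filter on low values), in limma on log2(FPKM + 0.1) (0.019) and without Ctrl 1 (0.056), and leaving out each library in turn gave -0.23 to 0.056. On library totals the median over all genes tested was a log2 fold change of 0.10, against 0.0047 on the TMM scale, and 58.2% of calls were higher, against 50.3%. Against a fold change of 1.5, 1 member was higher and 1 lower, 4 wider genes were higher and 2 lower, and 3779 genes were called in all, since this null asks for a larger change. Limma on log2(FPKM + 1) without a filter called 8 wider genes lower, and the cause was not tested. Leaving out each library in turn gave 1 to 3 members higher and 9 to 15 wider genes lower. In these fits the lone library of a group is assumed to vary like the other group. With the replicate number as a block, 2 members were higher and 2 lower, 13 wider genes higher and 13 lower, and 8853 genes were called, so no member's call changed. The labels give no shared origin for libraries of the same number, and their deviations correlated at -0.03. With detection set at an FPKM of 0.1 or at more than 3 counts, 7 members were detected, *Ffar2* being added. Depth limits the text on *Ffar2* and *Slc16a7*, with at most 7 counts in a library.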
